A study of Rattus norvegicus with 21 samples.

Results

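The genes B2m, Tap2 and Irf1 belong to the route by which a cell shows fragments of its own proteins to T cells. B2m encodes beta-2-microglobulin, the light chain that every classical MHC class I molecule needs to fold and to reach the cell surface. Tap2 encodes one subunit of the transporter that carries peptides from the cytosol into the endoplasmic reticulum, where class I molecules are loaded. Irf1 encodes interferon regulatory factor 1, a transcription factor that is induced by interferon gamma and by NF-kB and that binds promoters of class I pathway genes. In the spinal cord class I transcripts are known to be low in the resting state and to rise in inflammation. Every probe of the deposited table with one of these symbols was taken, which gave 3 probes, 1 for each of these 3 genes of the 4148 genes measured, among 4962 probes with a value and 5376 probes in all. The probes are 27A11 for B2m (NM_012512), 18F04 for Tap2 (X63854) and 7B02 for Irf1 (NM_012591).

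RNA of rat spinal cord was hybridised on 21 2-colour arrays, 3 in each of 7 groups, in a study whose title names anti-inflammatory compounds and spinal cord injury (SCI). Fresh cord taken at dissection formed the Uninjured group. All other groups were cord cultures kept for 4 hr, with PBS alone (Injured 4 hr) or with CKIN, MP, acetaminophen (Acet), indomethacin (Indo) or NS398. Uninjured, Injured 4 hr, CKIN, MP and Acet arrays carried a pool of PBS cultures in the other channel, Indo arrays a pool of ethanol (ETOH) cultures, and NS398 arrays a pool of DMSO cultures. The sample titles use the word pooled only for Uninjured and Injured 4 hr. Whether all PBS arrays carried the same RNA is not stated, and comparisons with Injured 4 hr take it as the same. If it differed, treatment and pool cannot be told apart there. The labels spell out neither CKIN nor MP, which are read here from field knowledge as cytokine inhibitors and methylprednisolone, a glucocorticoid. Indomethacin inhibits both cyclooxygenases, NS398 prefers cyclooxygenase 2, and acetaminophen is an analgesic. The labels give no strain, age, dose or pool size and do not say whether replicates were separate animals or cultures, so that a p-value here speaks of the scatter among these RNAs, which may be technical. In such tissue RNA, fewer cells of a type and less RNA per cell cannot be told apart.

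Each value is a log2 ratio of the sample to its pool, read in the order of the sample titles, which is likely but not stated. As deposited, the ratios carry large offsets between arrays, with medians between -4.13 and -3.11 in Uninjured, between -2.27 and -2.13 in Injured 4 hr, and between -1.63 and 0.69 in the treated cultures. A centred ratio is the deposited ratio minus the median of its array, so it states where a gene lies relative to the middle of the probes measured there. Probes with a value numbered between 3092 and 4916 per array, and 10 arrays had over 1100 missing spots (all of CKIN and Indo, MP 1 and 3, NS398 1 and Acet 1). These are called sparse arrays below and the other 11 full arrays. Tap2 had no value on CKIN 3 and MP 1, and Irf1 had none on CKIN 3. B2m was measured on all 21 arrays.

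The sequence upstream of each gene is shown because all these promoters hold textbook binding sites of interferon or NF-kB signalling. The stretches come from RefSeq, build GRCr8, run 5′ to 3′ on the strand of the gene, and end before the outermost annotated start. All 3 genes matched the RefSeq table by symbol. Capitals mark every match, on either strand, to the interferon-stimulated response element (GAAA, any 2 bases, GAAA), the gamma-interferon activation site (TTCNNNGAA) or the NF-kB consensus. No match overlapped another.
B2m, chr3:129549150-129549232 (+): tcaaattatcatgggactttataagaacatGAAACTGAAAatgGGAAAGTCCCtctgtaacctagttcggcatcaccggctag
Tap2, chr20:4652298-4652367 (-): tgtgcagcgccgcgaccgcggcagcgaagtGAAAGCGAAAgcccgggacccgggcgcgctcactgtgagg
Irf1, chr10:38417763-38417909 (+): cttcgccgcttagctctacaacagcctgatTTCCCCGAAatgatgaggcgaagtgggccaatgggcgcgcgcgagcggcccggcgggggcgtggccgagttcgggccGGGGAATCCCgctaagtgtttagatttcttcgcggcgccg

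B2m held an interferon-stimulated response element, GAAACTGAAA, 150 to 141 bases before the start given in the table, followed by an NF-kB match, GGAAAGTCCC, at 137 to 128 bases. Tap2 held 1 response element, GAAAGCGAAA, 41 to 32 bases before its start. Irf1 held a gamma-interferon activation site, TTCCCCGAA, at 142 to 134 bases and an NF-kB match, GGGGAATCCC, at 65 to 56 bases. For these genes only bases before the outermost annotated start were searched, 156 for B2m and 250 each for Tap2 and Irf1. In B2m that start lies upstream of the start from which positions are counted. Whole windows, 250 bases before and 50 after the start, gave the same 2, 1 and 2 matches. Among 33469 such RefSeq windows of 300 bases, 3.92% held the response element, 8.87% the activation site and 4.18% the NF-kB consensus. A match is a run of letters and not a measured binding site. In the same annotation Tap2 lies in the MHC beside Psmb8, Tap1 and Psmb9, all of which have a probe on this array.

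B2m, the class I light chain, had ratios to the pool that lay near the top of those on the array in fresh cord and in PBS cultures. Its deposited ratios in Uninjured were -1.28, -0.81 and -0.44, which placed its ratio between the 92.3rd and 95.8th percentile of the ratios on those arrays. Such a percentile ranks ratios to the pool and not levels of RNA. In Injured 4 hr the ratios were -0.06, -0.03 and -0.01, at the 97.3rd to 98.7th percentile. Both channels of those arrays carried PBS culture RNA, and there the deposited B2m ratio lay next to 0 while the array medians lay more than 2 log2 units lower. Relative to Gapdh, spotted 53 times, the B2m ratio was -1.31, -0.70 and -0.98 on the Uninjured arrays, a mean of -0.997 ± 0.303 (SD, n = 3), against 0.01 ± 0.04 (SD, n = 3) in Injured 4 hr.

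The direction of the B2m difference between fresh and cultured cord depended on what it was measured against. Centred on the array median it was 2.89 ± 0.38 (SD, n = 3) in Uninjured and 2.17 ± 0.04 (SD, n = 3) in Injured 4 hr, a difference of -0.72 ± 0.54 (SE) with a limma adjusted p of 0.404 in the model of all 21 arrays. Centred on Gapdh the difference was 1.01 ± 0.36 (SE), higher in Injured 4 hr, with a limma adjusted p of 0.0226. The deposited ratios (0.81), quantile normalization (0.50), scale normalization (1.21) and a loess correction (0.17) also put B2m higher in culture, and none of these passed. With only these groups in the model the centred difference of -0.72 passed, at a limma adjusted p of 0.0369. The groups did not overlap in the centred ratios, in the deposited ratios or relative to Gapdh. On the deposited scale the array medians of these groups did not overlap either. How many of all probes part without overlap was not counted, here or in any comparison below. For the Gapdh-relative values an exact 2-sided permutation test gave p = 0.1, the smallest that 3 against 3 arrays allow. No direction is given for B2m in this comparison.

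**Figure D1:**
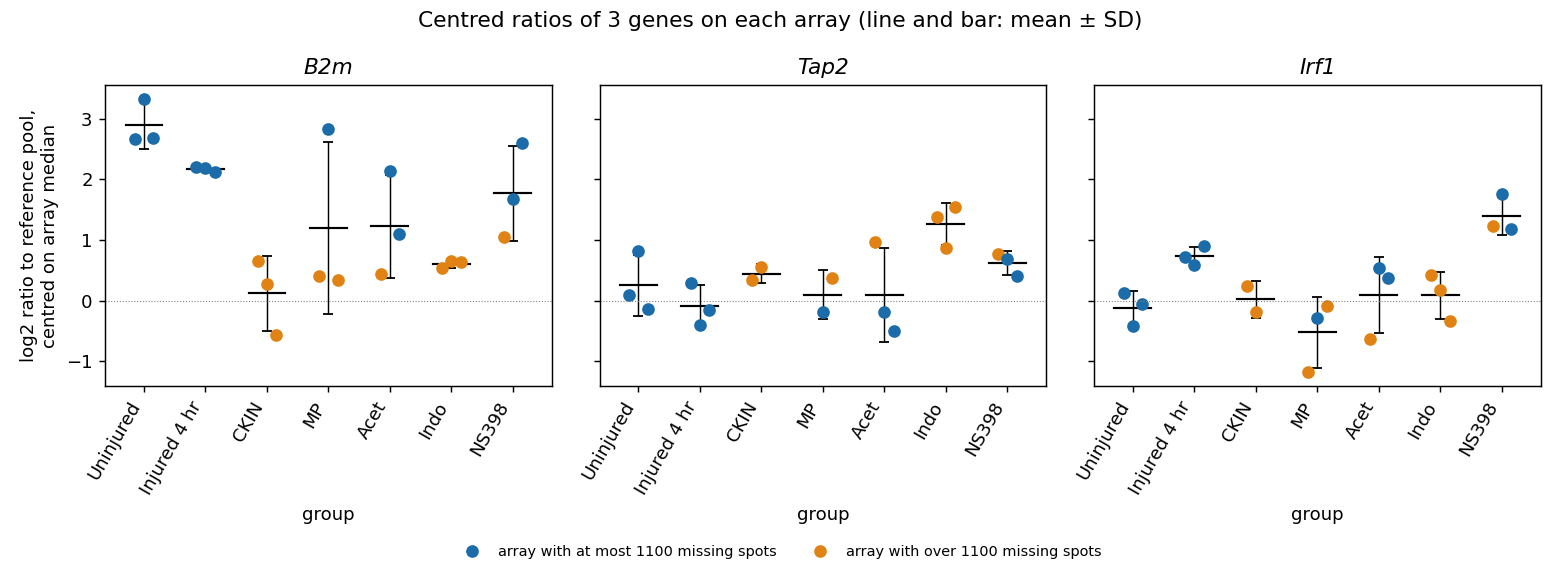
Centred log2 ratios to the reference pool (vertical axis) of B2m, Tap2 and Irf1 on each of 21 arrays in 7 groups (horizontal axis); points are arrays, coloured by whether over 1100 spots were missing, and lines with bars are group means ± SD. The 10 sparse arrays hold the B2m values from -0.56 to 1.05 and all full arrays lie above them; Irf1 is highest on the 3 NS398 arrays, from 1.18 to 1.75.

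Among the treated cultures the centred B2m ratios parted by array set. On the 10 sparse treatment arrays they ran from -0.56 to 1.05 with a median of 0.49, and on the 5 full ones from 1.10 to 2.83 with a median of 2.13, without overlap. In MP, the full array gave 2.83 and the sparse arrays 0.40 and 0.35. In Acet, the full arrays gave 2.13 and 1.10 and the sparse array 0.44. The deposited ratios of the same sets overlapped, from -0.76 to 1.13 on sparse arrays and from 0.38 to 1.49 on full ones. The order of the centred B2m means was Uninjured, Injured 4 hr (2.17), NS398 (1.77 ± 0.78, SD, n = 3), Acet (1.22 ± 0.85, SD, n = 3), MP (1.19 ± 1.42, SD, n = 3), Indo (0.61 ± 0.07, SD, n = 3) and CKIN (0.12 ± 0.62, SD, n = 3). Only the step from Uninjured to Injured 4 hr separated neighbours whose arrays did not overlap.

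B2m was lower in CKIN than in Injured 4 hr in the centred ratios, and this was the 1 call among the 3 genes in that comparison, where 19.4% of 3735 probes tested were called. Its CKIN values were 0.66, 0.27 and -0.56, below all of 2.21, 2.18 and 2.13 in Injured 4 hr. The difference was -2.05 ± 0.54 (SE), with a limma adjusted p of 0.018. All 3 CKIN arrays were sparse and all 3 Injured 4 hr arrays full. With array set as a term in the model the difference was -0.48 with an adjusted p of 0.767, and set against the other 4 treatments it was -1.08 with an adjusted p of 0.247. In the deposited ratios it was -0.13 and against Gapdh -0.82, and neither passed. The call was also lost without CKIN 3 (-1.71), and without Injured 4 hr replicate 1 (-2.03), replicate 2 (-2.05) or replicate 3 (-2.07), with limma adjusted p-values between 0.0542 and 0.0689. Set against its own PBS pool, B2m in CKIN stood at 0.12 ± 0.38 (SE), with a limma adjusted p of 0.882. Injured 4 hr stood at 2.17 in the same kind of test.

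In MP and Acet no gene of the 3 was called against Injured 4 hr, where 2% of 4390 and 1.23% of 4733 probes were. With 1 array left out, those 88 and 58 called probes became between 0 and 571 in MP and between 0 and 107 in Acet. B2m differed by -0.98 ± 0.54 (SE) in MP and by -0.95 ± 0.54 (SE) in Acet, with limma adjusted p-values of 0.351 and 0.471. In the deposited ratios both differences turned to 1.00 and 0.98 and passed, with adjusted p-values of 0.0411 and 0.0454. Without MP 2, the full array of that group, the centred MP difference was -1.80 with a limma adjusted p of 0.0171. The array-set term brought the MP difference to 0.07.

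B2m in NS398 had centred ratios of 1.05, 1.67 and 2.60 and passed against the DMSO pool at 1.77 ± 0.38 (SE), with a limma adjusted p of 0.00256. In that comparison 21.9% of 4485 probes were called. On the deposited scale the ratios were 0.89, 0.77 and 0.97 and passed too. Relative to Gapdh the mean was 0.41, higher than in the pool on all 3 arrays (0.62, 0.33 and 0.29), but with a limma adjusted p of 0.136, and against the other 4 treatments it was 0.99 with an adjusted p of 0.323. A rough background for tests against a pool came from the Injured 4 hr arrays, which compare PBS culture RNA with a pool of the same kind. There 22% of 4864 probes were called, and centred B2m passed at 2.17 ± 0.38 (SE) with a limma adjusted p of 0.000245, a value larger than in NS398; against Gapdh it was 0.01.

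In Indo B2m had deposited ratios of 0.76, 0.48 and 0.42 and centred ratios of 0.53, 0.66 and 0.63. The centred mean of 0.61 ± 0.38 (SE) did not pass against the ETOH pool (limma adjusted p = 0.339), and relative to Gapdh it was -0.07. With array set in the model it was 2.18 and passed, at an adjusted p of 0.00119, and quantile normalization also called it, at 0.99.

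Tap2, the transporter subunit, had ratios near the middle of those on the array in fresh cord and in PBS cultures. Its deposited ratios were -3.85, -3.32 and -3.26 in Uninjured and -1.98, -2.61 and -2.29 in Injured 4 hr, and those groups did not overlap. Centred, they became 0.09, 0.81 and -0.14 against 0.29, -0.40 and -0.16, and the groups overlapped. The percentiles ran from 46.6 to 64.6 in Uninjured and from 19.0 to 65.6 in Injured 4 hr. The centred difference was -0.34 ± 0.38 (SE) with a limma adjusted p of 0.578. In the deposited ratios (1.18) and against Gapdh (1.38) the difference had the other sign, and neither passed.

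Tap2 was highest in Indo, where the deposited ratios were 1.61, 0.70 and 1.33. Centred they were 1.38, 0.87 and 1.54, at the 98.3rd, 91.9th and 98.8th percentile of their arrays. Against the ETOH pool Tap2 passed at 1.26 ± 0.27 (SE), with a limma adjusted p of 0.0027, and it was the 1 call of the 3 genes where 13.1% of 3802 probes were called. It passed with each Indo array left out. On the deposited scale (1.21), relative to Gapdh (0.59), with array set in the model (0.55) and against the other 4 treatments (0.95), Tap2 was higher too, but did not pass, with limma adjusted p-values between 0.17 and 0.576. All 3 Indo arrays were sparse. On the 8 sparse treatment arrays with a value, centred Tap2 ran from 0.34 to 1.54 with a median of 0.82, against -0.49 to 0.69 with a median of -0.18 on the 5 full ones.

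The order of the centred Tap2 means was Indo (1.26 ± 0.35, SD, n = 3), NS398 (0.62 ± 0.19, SD, n = 3), CKIN (0.44 ± 0.15, SD, n = 2), Uninjured (0.25 ± 0.50, SD, n = 3), Acet (0.10 ± 0.77, SD, n = 3), MP (0.10 ± 0.40, SD, n = 2) and Injured 4 hr (-0.09 ± 0.35, SD, n = 3). Indo and NS398 did not overlap, while every other pair of neighbours did. Their difference was 0.64 ± 0.38 (SE), and its limma adjusted p was 0.545. In NS398 the Tap2 ratios were 0.77, 0.69 and 0.40 centred and 0.62, -0.21 and -1.22 as deposited. The centred mean of 0.62 ± 0.27 (SE) did not pass (limma adjusted p = 0.107), passed after the loess correction at 0.84 (adjusted p = 0.037), and was -0.74 relative to Gapdh.

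Tap2 did not pass against Injured 4 hr in CKIN (0.53 ± 0.43, SE), MP (0.19 ± 0.43, SE) or Acet (0.19 ± 0.38, SE), with limma adjusted p-values of 0.407, 0.859 and 0.9. Its Acet arrays lay apart, at 0.97 on the sparse array against -0.18 and -0.49 on the full ones, and without Acet 1 the difference was -0.25. On the deposited scale, where the array medians are left in, Tap2 was called higher in CKIN (2.42), MP (1.91) and Acet (2.12), with limma adjusted p-values of 0.0141, 0.0326 and 0.0136.

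Irf1, the transcription factor, was higher in cultured than in fresh cord under every scaling tried, although the centred difference did not pass. The deposited ratios were -3.81, -4.55 and -3.17 in Uninjured and -1.55, -1.61 and -1.24 in Injured 4 hr. Centred, these were 0.13, -0.42 and -0.05 against 0.72, 0.60 and 0.90. Each culture array lay above each fresh cord array on both scales. On the deposited scale the array medians parted in the same way, from -4.13 to -3.11 against -2.27 to -2.13. The share of all probes that parted without overlap was not counted on either scale. The Irf1 ratio ranked at the 36.9th to 53.1st percentile of ratios in Uninjured and at the 76.1st to 81.2nd in Injured 4 hr, with a mean difference of 31.9 percentile points and an exact 2-sided permutation p of 0.1, the smallest possible with 3 against 3.

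The centred Irf1 difference was 0.85 ± 0.37 (SE), with a limma adjusted p of 0.128, so that none of the 3 genes was called in this comparison, where 14.1% of 4821 probes were. Of 17 alternatives, 17 kept the direction and 5 passed. The deposited ratios gave 2.38 (adjusted p = 0.00674), Gapdh-centred ratios 2.58 (0.00194), the loess correction 1.72 (0.00276), that correction with source plates centred as well 1.73 (0.00259), and the model of these groups alone 0.85 (0.014), all from limma. Quantile and scale normalization gave positive differences that did not pass. Both loess corrections were fitted on the mean Injured 4 hr ratios, 1 of the groups compared, so their passing is not separate support. The deposited ratios keep the array offsets, and Gapdh-centred ratios called 2917 of all probes beside 682 in the centred ratios.

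**Figure D2:**
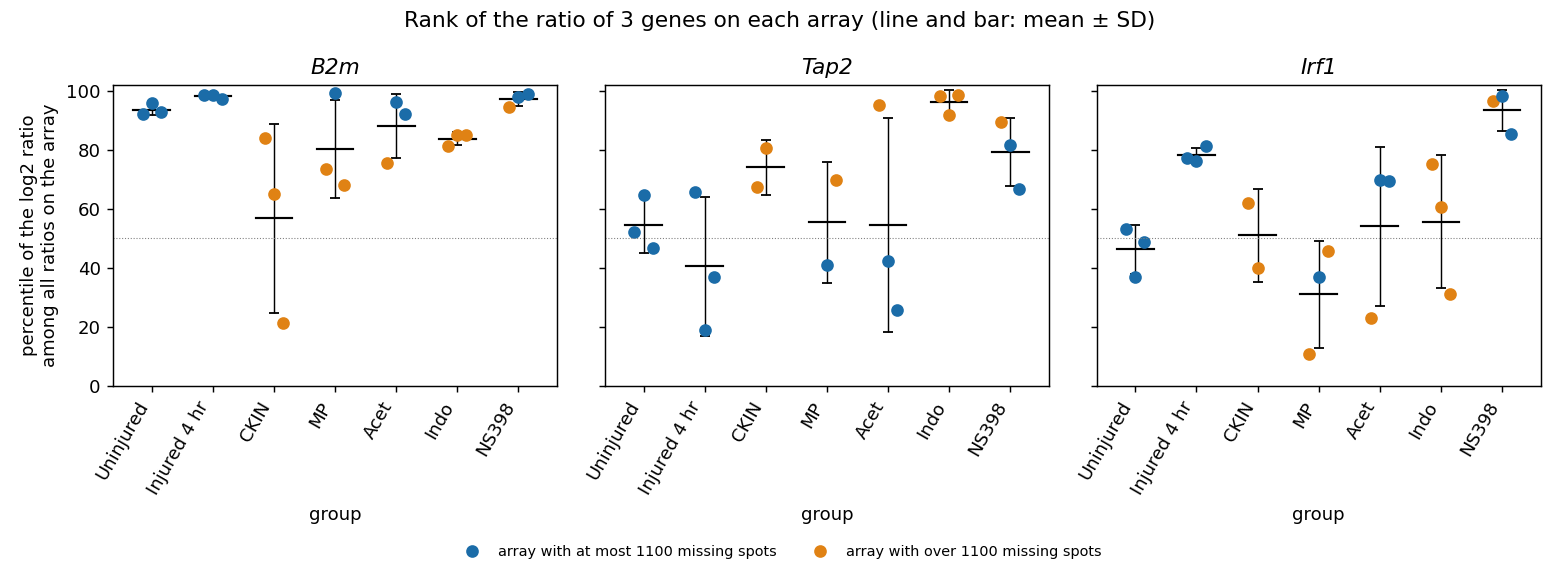
Percentile of the ratios of B2m, Tap2 and Irf1 among all ratios on the same array (vertical axis) in 7 groups (horizontal axis); points are arrays, coloured by missing spots, with group means ± SD. Irf1 lies at 36.9 to 53.1 in Uninjured, 76.1 to 81.2 in Injured 4 hr and 85.5 to 98.2 in NS398.

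Differences between the deposited ratios of genes on the same array are free of an offset common to the array, though not of scalings that bend or stretch the ratios. Irf1 minus Tap2 was 0.04, -1.23 and 0.09 in Uninjured and 0.43, 1.00 and 1.06 in Injured 4 hr. Irf1 minus B2m was -2.53, -3.75 and -2.72 in Uninjured and -1.49, -1.59 and -1.23 in Injured 4 hr. In both cases every culture array lay above every fresh cord array, by 1.19 and 1.57 log2 units on average, and both exact 2-sided permutation tests gave p = 0.1, the smallest possible. Against Tap2 the change was 1.19 in the centred, deposited and Gapdh-centred ratios. These differ only by a constant per array, so their differences between genes are equal by construction. It was 1.15 under quantile and 1.35 under scale normalization, and 2.21 after the loess correction, which was fitted on Injured 4 hr. Against B2m the change was 1.57 in the centred, deposited and Gapdh-centred ratios and 1.55 after the loess correction. Under quantile normalization it was 0.34, and under scale normalization -0.15, where the direction flipped. Such differences show unequal change and not which gene moved. In the treated cultures Irf1 minus Tap2 was -0.96, -0.70 and -1.88 in Indo, below 0 on all 3 arrays, and 0.47, 1.07 and 0.78 in NS398, above 0 on all 3.

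Irf1 had its highest ranks in NS398, at the 96.6th, 98.2nd and 85.5th percentile. The deposited ratios were 1.08, 0.85 and -0.44, and the centred ratios were 1.24, 1.75 and 1.18. Against the DMSO pool Irf1 passed at 1.39 ± 0.26 (SE), with a limma adjusted p of 0.000836, so that with B2m 2 of the 3 genes were called where 21.9% of probes were. The call stood with each NS398 array left out. It was lost on the deposited scale (0.50), relative to Gapdh (0.03) and in a model of NS398 alone (adjusted p = 0.0562). The Injured 4 hr arrays against their own kind of pool gave Irf1 a centred 0.74 ± 0.26 (SE), called at a limma adjusted p of 0.0444 and not called without any 1 of its arrays (0.66 to 0.81), while on the deposited scale it was -1.47 and against Gapdh -1.42, both past the threshold on the other side of 0.

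Compared with the mean of the other 4 treatments, centred Irf1 was higher in NS398 by 1.47 ± 0.29 (SE), with a limma adjusted p of 0.00834, where 2.23% of 3226 probes were called. The full NS398 arrays, at 1.75 and 1.18, lay above the full arrays of Acet (0.55 and 0.37) and MP (-0.29). The sparse NS398 array, at 1.24, lay above the other 8 sparse arrays with a value, which ran from -1.18 to 0.42. On the deposited scale NS398 3 (-0.44) lay below both full Acet arrays (-0.24 and -0.35), and relative to Gapdh (-1.13) it lay below Acet 3 (-1.08). NS398 is the only group set against the DMSO pool, so the treatment and its pool cannot be told apart in any of these comparisons.

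In MP, which had the lowest centred mean of Irf1, the centred ratios were -1.18, -0.29 and -0.09. On the deposited scale they were -0.88, -1.63 and 0.28, and there Uninjured and Injured 4 hr had lower means. All 3 centred MP values lay below the Injured 4 hr arrays, but the difference of -1.26 ± 0.37 (SE) did not pass, at a limma adjusted p of 0.0719. It passed without MP 2, at -1.37 (adjusted p = 0.0273), and under scale normalization, at -1.53 (adjusted p = 0.0129), and it turned to 0.72 on the deposited scale. In CKIN (-0.72 ± 0.41, SE, with 2 arrays) and in Acet (-0.64 ± 0.37, SE) Irf1 did not pass either, with limma adjusted p-values of 0.227 and 0.467, and Gapdh-centred ratios turned both to 0.41 and 0.06. On the deposited scale they turned to 1.17 in CKIN, which did not pass, and to 1.29 in Acet, which was called higher (limma adjusted p = 0.0401). In Indo it was 0.09 ± 0.26 (SE), with a limma adjusted p of 0.876, and -0.59 relative to Gapdh.

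The order of the centred Irf1 means was NS398 (1.39 ± 0.32, SD, n = 3), Injured 4 hr (0.74 ± 0.15, SD, n = 3), Acet (0.09 ± 0.63, SD, n = 3), Indo (0.09 ± 0.39, SD, n = 3), CKIN (0.02 ± 0.30, SD, n = 2), Uninjured (-0.11 ± 0.28, SD, n = 3) and MP (-0.52 ± 0.58, SD, n = 3). The arrays of NS398 did not overlap those of Injured 4 hr, nor those of Injured 4 hr the arrays of Acet, and all later neighbours overlapped.

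The 5 treatments form 10 pairs, and over the 3 genes 1 of 30 differences passed, where 0.457% of all probe tests over the 10 pairs did. That was Irf1 in MP against NS398, MP minus NS398 at -1.91 ± 0.37 (SE) with a limma adjusted p of 0.0092, in a comparison that called 1.24% of 4185 probes. The MP and NS398 arrays did not overlap. The call was lost without MP 1 (-1.58, limma adjusted p = 0.0552), on the deposited scale (-1.24, 0.195), relative to Gapdh (-2.05, 0.065) and in a model of these groups alone (0.44). Irf1 in CKIN, Acet and Indo also lay below every NS398 array, by -1.37, -1.30 and -1.31, with limma adjusted p-values of 0.0991, 0.0995 and 0.126. Indo and NS398, both cyclooxygenase inhibitors, had Indo minus NS398 differences of opposite sign in Irf1 (-1.31) and Tap2 (0.64), neither of them called, and were read against different pools.

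**Figure D3:**
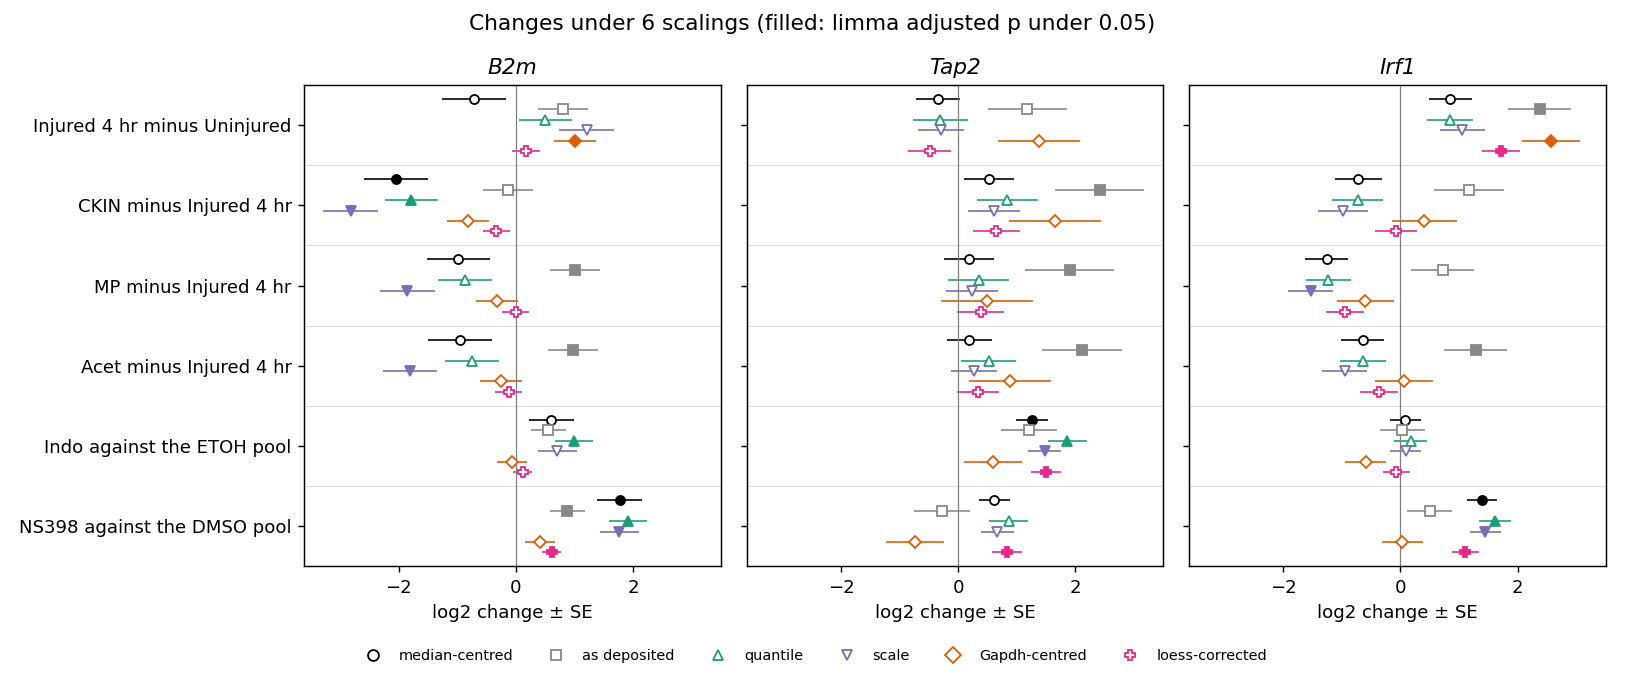
Log2 change ± SE (horizontal axis) of B2m, Tap2 and Irf1 in 6 comparisons (vertical axis) under 6 scalings of the arrays, marked by shape and colour; filled symbols have a limma adjusted p under 0.05. In Injured 4 hr minus Uninjured, Irf1 lies above 0 under all 6, from 0.85 to 2.58, while B2m runs from -0.72 to 1.21.

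Counts for the other genes of class I antigen presentation, without B2m and Tap2, depended on the scaling. In the centred ratios 0 of 12 probes were called higher and 2 lower in Injured 4 hr than in Uninjured, a share of 16.7% beside 14.1% of all probes, with a median of -0.61 against -0.05 over all probes tested. Of all 4821 probes tested, 38 were called higher and 644 lower. The called class I probes were Canx (-2.00), the chaperone calnexin, and Pdia3 (-1.68), a disulfide isomerase of the loading complex. Both act on many other proteins as well. Under quantile or scale normalization 0 of the 12 passed in limma, deposited ratios called 3 higher, and Gapdh-centred ratios called 5 higher and 0 lower. Over all probes quantile normalization called 20 and Gapdh-centred ratios 2917, in either direction. Of 23 probes of the standard proteasome, which makes most peptides, 15 were called lower in the centred ratios, but 0 were under quantile, scale, deposited, loess-corrected or Gapdh-centred values, the last of which called 3 higher.

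The MHC neighbours of Tap2 were not called either. Tap1, the partner of Tap2 in the transporter, differed by 0.05 ± 0.84 (SE) between culture and fresh cord, with 0.973 as its limma adjusted p. Psmb8 and Psmb9, subunits of the interferon-inducible immunoproteasome, differed by 0.32 ± 0.40 (SE) and -0.52 ± 0.39 (SE), with limma adjusted p-values of 0.626 and 0.398. RT1-M3-1, a non-classical class I heavy chain, was at -0.91 ± 0.37 (SE), with a limma adjusted p of 0.112. In the centred ratios none of these 4 probes was called in those of the 6 comparisons that tested it. In Acet, Tap1 ran from -4.79 to 0.10 over its 3 arrays, and it had no value on the Indo arrays.

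In the treated cultures the share of other class I probes called in the centred ratios was below that over all probes in every comparison. With 9 to 12 probes, however, 1 call more or less changes such a share greatly. In MP and Acet only 2% and 1.23% of all probes were called, so 0 calls were likely there in any case. In CKIN 1 of 9 was lower (11.1% beside 19.4% of all probes), which was Psme2 (-1.13), a subunit of the PA28 proteasome activator, and with array set in the model it was not called. In NS398 1 of 12 was higher (8.33% beside 21.9%), which was Psme1 (1.00), the other PA28 subunit. Its centred mean on the Injured 4 hr arrays, read against the PBS pool, was 0.88. Relative to Gapdh 0 of the 12 were higher and 9 lower, where 3488 of all probes were called in either direction. In Indo 0 of 9, in MP 0 of 11 and in Acet 0 of 12 passed in limma on the centred ratios, and 0, 2 and 1 had an unadjusted p under 0.05. Deposited ratios called 5 of 9 higher in CKIN (55.6%), 8 of 11 in MP (72.7%) and 8 of 12 in Acet (66.7%). Over all probes they called 2170 of 3735, 3160 of 4390 and 3363 of 4733, in either direction. Scale normalization called 4 lower in CKIN, 1 higher and 1 lower in MP and 1 lower in Acet. Gapdh-centred ratios called 3 lower in Indo. Medians of these probes in the centred ratios were -0.58 in CKIN, -0.27 in MP, -0.20 in Acet, -0.22 in Indo and 0.23 in NS398, against -0.38, -0.27, -0.21, 0.02 and -0.02 over all probes tested.

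Of 28 other interferon signalling probes, without Irf1, 2 were called higher and 0 lower in Injured 4 hr than in Uninjured, with a median of 0.13 against -0.05. Their share called in either direction was 7.14% beside 14.1% of all probes. Over all 4821 probes tested, 38 were called higher and 644 lower, so the 2 interferon calls lay on the rarer side. They were Cxcl10 (1.82), a chemokine that draws T cells, and Socs3 (1.27), a feedback inhibitor of cytokine receptors. Cxcl10 passed under all 6 scalings, and Socs3 missed the threshold under quantile (1.30) and scale (1.00) normalization. Deposited ratios called 20 of the 28 higher and Gapdh-centred ratios 21 (75%). Over all probes Gapdh-centred ratios called 2917 in either direction.

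In CKIN, MP and Acet 0 of 21, 0 of 26 and 0 of 28 other interferon probes passed against Injured 4 hr in limma on the centred ratios, and 2, 1 and 0 had an unadjusted p under 0.05. Deposited ratios called 13, 19 and 24 of them higher (61.9%, 73.1% and 85.7%). Over all probes they called 2170 of 3735, 3160 of 4390 and 3363 of 4733, in either direction. In NS398 3 of 25 were called higher and 1 lower, a share of 16% beside 21.9% of all probes. The higher ones were Cxcl10 (0.94), Gbp2 (0.92), an interferon-induced GTPase, and Ptpn11 (1.62), a phosphatase of growth factor and cytokine receptors, and Ifna5 (-1.03), a type I interferon, was lower. On the Injured 4 hr arrays, read against the PBS pool, centred means were 0.95 for Cxcl10, 0.17 for Gbp2, 2.23 for Ptpn11 and -0.25 for Ifna5. As deposited, the NS398 means of these probes were 0.05, 0.03, 0.73 and -1.92. Relative to Gapdh 0 of the 25 were higher and 16 lower, where 3488 of all probes were called in either direction. In Indo 1 of 23 was called higher and 2 lower, a share of 13% beside 13.1%. Mx2 (2.20), an interferon-induced antiviral GTPase, ran from -0.17 to 5.88 over its 3 arrays, while Eif2ak2 (-1.14), the RNA-sensing kinase PKR, and Socs1 (-0.71), a feedback inhibitor of interferon receptors, were lower.

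NF-kB components were few on the array. Of 7 probes, 1 was called higher in Injured 4 hr than in Uninjured, a share of 14.3% beside 14.1% of all probes. This was Nfkbia (1.88), the inhibitor of NF-kB that is itself a target of the factor. Deposited and Gapdh-centred ratios each called 6 of the 7 higher, and over all probes Gapdh-centred ratios called 2917 in either direction. In CKIN 2 of 6 were called lower (33.3% beside 19.4% of all probes), Nfkbia (-1.73) and Nfkb1 (-1.66), a subunit of the factor. With array set in the model 0 were called, and 5 over all probes. In NS398 4 of 7 were called higher, a share of 57.1% beside 21.9% of all probes. They were Nfkbia (1.79), Nfkb1 (1.05), Tnfrsf1a (0.89), a receptor for TNF, and Nfkbib (0.75), another inhibitor. On the Injured 4 hr arrays, read against the PBS pool, centred means were 1.21 for Nfkbia, 1.17 for Nfkb1, -0.09 for Tnfrsf1a and 0.37 for Nfkbib. In NS398 quantile and scale normalization each called 4 of the 7 higher and the loess correction 2. Deposited ratios called 1 higher and 1 lower. Relative to Gapdh 0 of the 7 were higher and 2 lower, where 3488 of all probes were called in either direction. In MP, Acet and Indo 0 of 7, 0 of 7 and 0 of 5 passed in limma on the centred ratios, beside 2%, 1.23% and 13.1% of all probes. An unadjusted p under 0.05 was seen for 1, 2 and 0. These 4 genes lie outside the rule for named genes and were named after their values were seen. All lists were chosen with earlier results of these arrays known, and the counts describe them only.

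**Figure D4:**
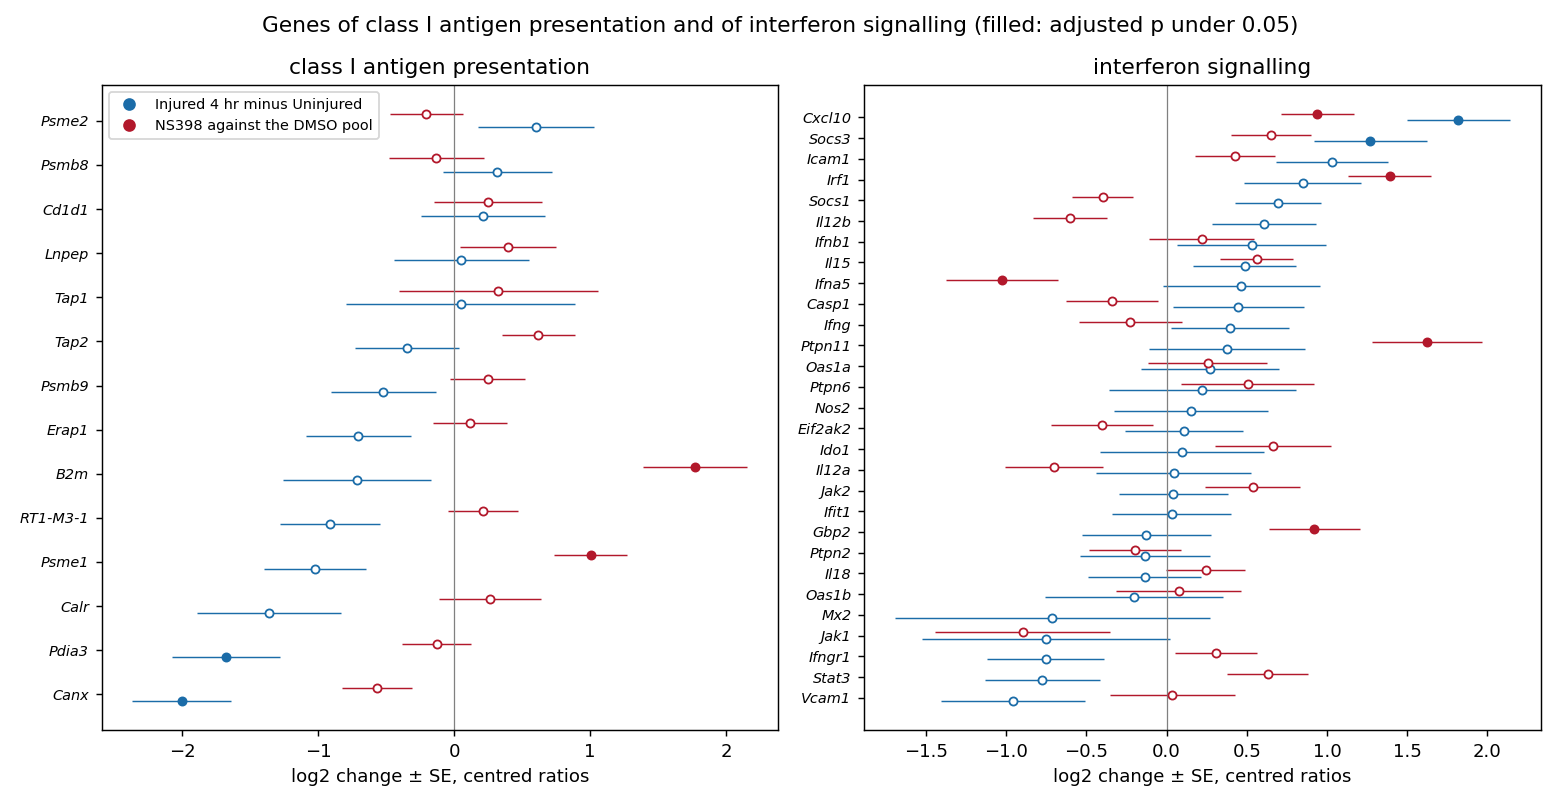
Log2 change ± SE of centred ratios (horizontal axis) for each probe of class I antigen presentation (left) and of interferon signalling (right), in Injured 4 hr minus Uninjured (blue) and in NS398 against the DMSO pool (red); filled symbols have a limma adjusted p under 0.05. Canx (-2.00) and Pdia3 (-1.68) lie lowest among the class I probes in the first comparison and Cxcl10 (1.82) highest among the interferon probes.

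The probes most like each gene across arrays differed between the 3 genes. For B2m, over 21 arrays, they were Rpl29, Rpl5 and Rps29, each with a Pearson correlation of 0.98, among 3738 probes compared. All 3 encode cytosolic ribosomal proteins. For Irf1 they were Mos (0.83 over 15 arrays), Ntn3 (0.80 over 19) and Ifitm2 (0.79 over 20), an interferon-induced membrane protein. For Tap2 they were Gper1 (0.76 over 15 arrays), Rab27a (0.70 over 15) and Ech1 (0.69 over 16). The arrays share groups and scaling, so these are descriptions of the pattern.

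Markers of other cells were read on the same arrays, in the centred ratios only. How their counts depend on the scaling was not tested. Of the neuronal markers, 7 of 11 probes were called lower in Injured 4 hr than in Uninjured, with mean centred ratios of 1.55 to 1.64 against 3.43 to 3.73. In that comparison 14.1% of all 4821 probes were called, 38 higher and 644 lower. Astrocyte markers had 6 of 9 called lower. Of the microglia and macrophage markers 0 of 9 were called, by limma, with mean centred ratios of 0.36 to 0.46 in Injured 4 hr and 0.20 to 0.44 in Uninjured, and of the lymphocyte markers 0 of 8. At an unadjusted p under 0.05 these counts were 2 and 1. In CKIN, where 19.4% of all probes were called, 2 of 7 microglial probes were called lower than in Injured 4 hr, with mean ratios of -0.49 to 0.09. Of the oligodendrocyte probes 5 of 8 were called lower. In NS398, where 21.9% of all probes were called, 1 of 9 microglial probes passed, with mean ratios of 0.15 to 0.45. Of granulocyte and blood markers 2 of 4 were called higher there, with mean ratios of 0.18 to 0.76 against 0.26 to 0.40 in Injured 4 hr, and of endothelial and vessel markers 2 of 10 higher and 1 lower. The part of these cells in the results for B2m, Tap2 and Irf1 was not tested.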

How the data were processed

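Per the file headers and the labels, the authors deposited 1 value per probe for each of 21 2-colour arrays, taken as a log2 ratio with the sample as numerator and the pool as denominator. The base was read from the values, and the direction from the order of RNAs in the titles. Dyes, scanner, background correction and normalization were not given in the sources. Symbols came from the platform annotation, updated by gene identifier for 4367 of 4415 measured probes with 1 symbol, while 2 had several symbols and 545 had none. Spots of Gapdh were averaged, and the median over probes was subtracted from every array.

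All arrays entered 1 model in limma 3.58.1 (R 4.3.3) with 1 coefficient per group, moderated statistics and Benjamini-Hochberg adjustment over all probes tested, 2-sided at 0.05. Testing a probe required values on at least 2 of the 3 arrays in both groups. The model was tested on simulated data with independent noise in every probe, without array offsets or differences in level between sparse and full arrays. That test cannot say how calls fare where those are present. Indo and NS398 were tested against 0, so that the pool is 1 control sample whose own spread is left out.

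Alternatives were other scalings, blocks, filters and arrays left out. The loess correction (span 0.4) took mean Injured 4 hr ratios as a stand-in for brightness. In comparisons with Injured 4 hr it therefore used 1 of the groups compared. Averaging probes of a gene was not needed, since each gene has 1. The members and lists were chosen with earlier results of these data known. Named list probes are up to 12 called ones, first in Injured 4 hr minus Uninjured, and in any case Tap1, Psmb8, Psmb9 and RT1 probes, and the 3 probes most correlated with each gene over at least 15 arrays. Comparisons between treatments, the scalings of list counts and the list counts without the 3 genes were added after seeing the data. Replicate numbers were not taken as pairs, and the labels do not settle whether they are. Deviations of same-numbered arrays from their group means correlated between -0.085 and 0.061. These were computed for Injured 4 hr with Uninjured, CKIN, MP and Acet only.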

Additional observations from a re-analysis of the deposited data

Results flagged for a closer look

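Irf1 differed between MP and NS398 cultures, both kept for 4 hr, by -1.91 ± 0.37 (SE) in the centred log2 ratios, with a limma adjusted p of 0.0092. It was singled out because the effects of these treatments differed by a test of the difference itself, 1 of 30 such tests over 10 pairs of treatments and 3 genes. The call was lost in 4 of 14 alternatives, which were the deposited ratios (-1.24), Gapdh-centred ratios (-2.05), a model of these groups alone (-1.91) and the fit without MP 1 (-1.58), and the direction held in all 14. All 3 MP arrays (-1.18, -0.29 and -0.09) lay below all 3 NS398 arrays (1.24, 1.75 and 1.18). The groups were read against different pools, PBS and DMSO, so the treatment and the pool cannot be told apart.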

How the results depend on the processing

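Over the results for the 3 genes, 341 alternatives were computed, of which 250 kept direction and side of the threshold, 27 lost a call, 20 gained one and 44 turned direction. Signal over background cannot be judged from ratios alone. In what follows a value passed at an adjusted p under 0.05 in limma only where it is said to, and the cause of each change was not tested.

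In the deposited ratios, Injured 4 hr minus Uninjured was 0.81 for B2m, 1.18 for Tap2 and 2.38 for Irf1 (passed). Against Injured 4 hr, CKIN was -0.13 for B2m, 2.42 for Tap2 (passed) and 1.17 for Irf1. MP was 1.00 for B2m (passed), 1.91 for Tap2 (passed) and 0.72 for Irf1, and Acet was 0.98, 2.12 and 1.29 (all passed). Tap2 was 1.21 in Indo and -0.27 in NS398, Irf1 was 0.50 in NS398, and Irf1 in MP minus NS398 was -1.24. Injured 4 hr against its pool was -0.031 for B2m, -2.29 for Tap2 and -1.47 for Irf1 (both passed).

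Gapdh-centred ratios gave 1.01 for B2m (passed), 1.38 for Tap2 and 2.58 for Irf1 (passed) in Injured 4 hr minus Uninjured. They gave B2m -0.82 and Irf1 0.41 in CKIN, and Irf1 0.058 in Acet. B2m, Tap2 and Irf1 were -0.069, 0.59 and -0.59 in Indo and 0.41, -0.74 and 0.031 in NS398. Injured 4 hr against its pool gave 0.015, -2.25 (passed) and -1.42 (passed), and Irf1 in MP minus NS398 was -2.05. Quantile normalization gave B2m 0.50 between culture and fresh cord and 0.99 in Indo (passed). Scale normalization gave B2m 1.21 between culture and fresh cord, -1.86 in MP and -1.81 in Acet (both passed), and Irf1 -1.53 in MP (passed).

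After loess correction, Injured 4 hr minus Uninjured was 0.17 for B2m and 1.72 for Irf1 (passed), B2m in CKIN -0.33, Irf1 in Indo -0.068 and Tap2 in NS398 0.84 (passed). With plates centred as well, chosen after seeing the data, these were 0.19, 1.73 (passed), -0.56, -0.35 and 0.74 (passed). Models of the compared groups alone passed B2m at -0.72 and Irf1 at 0.85 in Injured 4 hr minus Uninjured and lost Irf1 at 1.39 in NS398 and at -1.91 in MP minus NS398. With array set as a block, B2m was -0.48 in CKIN, 0.070 in MP and 2.18 in Indo (passed), and Tap2 was -0.18 in CKIN, -0.17 in MP, -0.049 in Acet and 0.55 in Indo.

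Against the PBS pool, B2m was 0.12 in CKIN, 1.19 in MP and 1.22 in Acet (both passed), and Irf1 was 0.023 in CKIN and 0.095 in Acet. Against the other 4 treatments, B2m was -1.08 in CKIN, 0.26 in MP, 0.30 in Acet, -0.47 in Indo and 0.99 in NS398. Tap2 was then -0.075 in CKIN, -0.51 in both MP and Acet, and 0.95 in Indo, and Irf1 was -0.16 in Indo. With the replicate block, Irf1 in Indo was -0.027 and no call changed, although the labels do not say that equal numbers share anything more.

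Leaving out 1 array at a time gave B2m -2.32 to -1.71 in CKIN and -1.80 to -0.56 in MP, Irf1 -1.47 to -0.93 in MP, Tap2 -0.25 to 0.48 in Acet and Irf1 -0.082 to 0.30 in Indo. Injured 4 hr against its pool gave Irf1 0.66 to 0.81 and Tap2 -0.28 to 0.066. Irf1 in MP minus NS398 ran from -2.13 to -1.58.

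Counts of called probes moved as well. With all arrays kept, they ran from 20 (quantile) to 2917 (Gapdh) beside 682 in Injured 4 hr minus Uninjured, from 5 (array set) to 2170 (deposited) beside 726 in CKIN, from 1 (other treatments) to 3160 (deposited) beside 88 in MP, and from 3 (other treatments) to 3363 (deposited) beside 58 in Acet. In Indo they ran from 0 (other treatments) to 877 (quantile) beside 498, in NS398 from 72 (other treatments) to 3488 (Gapdh) beside 982, in Injured 4 hr against its pool from 1490 (scale) to 4434 (Gapdh) beside 1070, and in MP minus NS398 from 0 (these groups alone) to 139 (array set) beside 52. With 1 array left out they ran from 345 to 491 in Injured 4 hr minus Uninjured, 195 to 530 in CKIN, 0 to 571 in MP, 0 to 107 in Acet, 290 to 379 in Indo, 469 to 968 in NS398, 779 to 844 in Injured 4 hr against its pool and 13 to 70 in MP minus NS398.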
